A study of Mus musculus with 8 samples.

Results

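Endothelial cells (ECs) take on features of the organ they line, and 9 genes that mark such specialized vessels were examined in RNA sequencing data of mouse microvascular ECs. They were chosen by symbol, as markers of liver sinusoidal ECs (Stab2, Lyve1, Clec4g and Oit3), of lung or heart capillary ECs (Gpihbp1, Car4, Meox2 and Tcf15) and of fenestrated vessels (Plvap). All 9 were found among the 22520 genes of the deposited table. The question was which of these organ programs the libraries held, and whether their level differed once Lrp1 had been deleted.

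The 8 libraries, written here as WT 1 to 4 and LRP1 KO 1 to 4, were measured at postnatal day 14, with 4 libraries in each of the 2 groups. All mice were of the C57BL/6 strain according to the labels, and each library is given as a mixture of microvascular cells of 3 organs, heart, liver and lung. The study's text describes liver ECs separately from heart and lung ECs, but the labels make no such split and none was made here. Both groups carried floxed alleles of Lrp1 (LRP1 f/f). The LRP1 KO mice also carried a tamoxifen-inducible Cre recombinase driven by the promoter of the endothelial gene Cdh5 (Cdh5-CreER+/-), and the WT mice were littermates without it (Cdh5-CreER-/-). Such cells were isolated with beads that bind PECAM-1, an adhesion molecule of ECs that leukocytes and platelets also carry. Nothing in the labels says whether a library came from 1 animal or from pooled animals, so that p-values measure only the spread between these libraries.

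Liver sinusoidal ECs are scavenger cells with open pores and no continuous basement membrane. They clear hyaluronan, collagen fragments and other waste from blood through receptors such as stabilin-2 (Stab2). Lung and heart capillaries are closed, and their ECs carry surface enzymes and lipid carriers: carbonic anhydrase 4 (Car4) in lung alveolar capillaries, and GPIHBP1, which moves lipoprotein lipase to the vessel lumen, where triglycerides are split for the heart muscle. Meox2 and Tcf15 are transcription factors of heart capillaries, where they act together on fatty acid transport.

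Values are given as FPKM (fragments scaled by transcript length and by the library's mapped fragments), quantile normalized, and they therefore compare genes per length. Differences between groups are given as log2 fold changes of log2(FPKM + 1), LRP1 KO against WT, with their SE, from a limma fit over 11389 genes with at least 1 FPKM in at least 4 libraries. The quantity added to FPKM makes the fold changes of low genes smaller than the ratio of their FPKM. A gene was called at an adjusted p-value under 0.05, which 13.6% of the tested genes reached, 6.27% higher in LRP1 KO and 7.31% lower.

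Several values of the whole table bear on these genes. Lrp1, the targeted gene, ranged from 103 to 140 FPKM in WT and from 2.79 to 7.72 FPKM in LRP1 KO (log2 fold change -4.45, SE 0.231, adjusted p = 8.89e-05). The summed level of 18 pan-endothelial genes was 192 to 203 FPKM in WT, 434 to 688 FPKM in LRP1 KO 1 to 3 and 198 FPKM in LRP1 KO 4, so that 1 library of the knockout group stood at the WT level. Of the 17 of them that were tested, 2 rose (Eng and Ecscr) and none fell, and 16 rose without LRP1 KO 4, in a fit that called 26.5% of all tested genes. Markers of other cells were abundant: 6 mesothelial genes summed to 2269 to 2632 FPKM in WT and 1977 to 2219 FPKM in LRP1 KO, and 10 fibroblast genes to 2553 to 3694 FPKM and 2153 to 3339 FPKM. The 12 macrophage genes summed to 55.5 to 96.0 FPKM in WT and 223 to 544 FPKM in LRP1 KO, LRP1 KO 4 included, and 7 of the 9 tested rose. Among them Adgre1, at most 0.475 FPKM in WT, passed the filter through LRP1 KO alone. In such bulk libraries, fewer cells of a type and less RNA per cell cannot be told apart.

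Most organ markers were low. In WT, 3 of the 9 genes had a mean of at least 1 FPKM, and 3 had a mean under 0.1 FPKM. In order of WT mean, Plvap stood at the 79.4th percentile of all genes and Lyve1 at the 75.9th percentile, followed at a distance by Gpihbp1 at the 52.5th, Car4 at the 48.6th, Oit3 at the 46.0th, Meox2 at the 43.1st and Stab2 at the 38.0th. Tcf15 and Clec4g were last. The WT ranges of Plvap and Lyve1 overlapped, as did those of Gpihbp1 and Car4, of Stab2 and Tcf15, and of Tcf15 and Clec4g, whereas the other neighbours in this order were separate. In LRP1 KO the order was Plvap, Lyve1, Gpihbp1, Oit3, Meox2, Car4, Stab2, Clec4g and Tcf15, so that Car4 moved from below Gpihbp1 to below Meox2, with ranges of Meox2 and Car4 that overlapped.

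**Figure D1:**
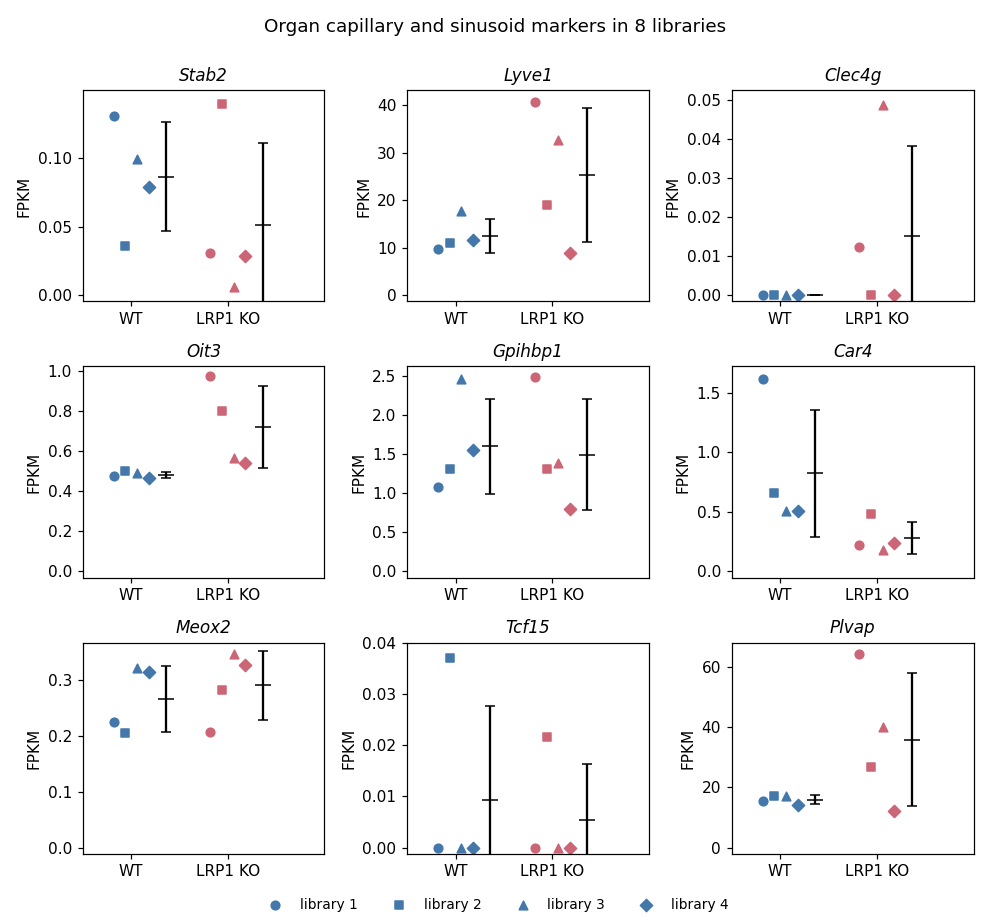
FPKM of the 9 organ markers in each library (points, shaped by library number) with the mean and SD of the 4 libraries of a group, on an axis of its own for each gene. Plvap and Lyve1 reach 64.0 and 40.75 FPKM, with LRP1 KO 1 to 3 above LRP1 KO 4, and the other 7 genes stay at or under 2.48 FPKM.

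The markers that are most specific for liver sinusoids were barely present. Stab2 (chr10:86841198-87008025, minus strand, GRCm38) was 0.131, 0.0360, 0.0997 and 0.0792 FPKM in WT 1 to 4 and 0.0305, 0.139, 0.00603 and 0.0289 FPKM in LRP1 KO 1 to 4. All 8 values are far below 1 FPKM and the groups overlapped (exact two-sided permutation test, p = 0.371). Clec4g, which encodes the sinusoidal lectin LSECtin (chr8:3707064-3720651, minus strand), is listed at 0 in the 4 WT libraries and in LRP1 KO 2 and 4, at 0.0124 FPKM in LRP1 KO 1 and at 0.0486 FPKM in LRP1 KO 3. These are trace values with no fold change to give.

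Oit3, which encodes a zona pellucida domain protein of the liver (chr10:59422958-59441778, minus strand), was low but measurable in every library. It was 0.476, 0.499, 0.489 and 0.464 FPKM in WT and 0.978, 0.800, 0.565 and 0.543 FPKM in LRP1 KO. The lowest LRP1 KO value thus exceeded the highest WT value, with means of 0.482 ± 0.0154 and 0.722 ± 0.207 FPKM (SD, n = 4; exact permutation test, p = 0.0286, the smallest that 4 against 4 libraries allow). Such a separation upward was seen in 7.57% of the 18026 genes with any value above 0. In a fit that kept genes with at least 0.1 FPKM in 4 libraries, which called 13.1% of them, Oit3 did not pass (log2 fold change 0.21, SE 0.0834, adjusted p = 0.118). Without any 1 of the WT libraries the difference was 0.20 to 0.21 on the log2 scale and the exact permutation p 0.0857 to 0.114.

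Lyve1, a hyaluronan receptor (chr7:110850607-110863239, minus strand), was the exception within the sinusoidal group. Its expression is not limited to liver sinusoids: lymphatic ECs and some tissue macrophages are known to carry it. Lyve1 was 9.71, 10.9, 17.9 and 11.7 FPKM in WT 1 to 4 and 40.75, 19.0, 32.8 and 8.83 FPKM in LRP1 KO 1 to 4. LRP1 KO 1 to 3 were above all WT libraries, and LRP1 KO 4 was below them. The means were 12.5 ± 3.63 and 25.3 ± 14.2 FPKM (SD, n = 4), and the difference did not pass the test (log2 fold change 0.80, SE 0.401, adjusted p = 0.194). Its 95% interval ran from -0.11 to 1.70. Without LRP1 KO 4, Lyve1 passed (log2 fold change 1.20, SE 0.262, adjusted p = 0.0116), in a fit in which 26.5% of all genes did. Without LRP1 KO 1 the log2 fold change was 0.51 (adjusted p = 0.420). Of the lymphatic markers, Prox1, the transcription factor that defines these vessels, was 0.610 to 0.864 FPKM in WT and 2.22, 0.632, 1.76 and 0.466 FPKM in LRP1 KO 1 to 4. Flt4 was 2.81 to 3.85 FPKM in WT and 10.4, 5.29, 7.91 and 2.68 FPKM in these libraries, and Mmrn1, a protein of lymphatic vessels and platelets, was 5.16 to 9.89 FPKM in WT and 18.5, 7.33, 15.9 and 4.25 FPKM. The knockout libraries of these 3 genes had the order of Lyve1, with LRP1 KO 4 below the WT libraries, but LRP1 KO 2 was above WT for Flt4 alone and within the WT range for Prox1 and Mmrn1. Reln, at 0.476, 0.371, 0.454 and 0.257 FPKM in LRP1 KO 1 to 4, also had this order, but LRP1 KO 4 was within its WT range. Pdpn and Ccl21a did not have it: LRP1 KO 4 was their highest knockout library (231 and 0.514 FPKM). The summed level of the macrophage genes given above was higher in all 4 LRP1 KO libraries than in WT. Their part in the level of Lyve1 was not tested.

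Plvap forms the diaphragms that close fenestrae and caveolae (chr8:71497765-71511752, minus strand), and it had the highest level of the 9 genes. It was 15.3, 16.9, 17.0 and 14.0 FPKM in WT and 64.0, 26.6, 40.0 and 12.1 FPKM in LRP1 KO. The order of libraries was that of Lyve1: LRP1 KO 1 highest, then 3 and 2, and LRP1 KO 4 below all WT libraries. The means were 15.8 ± 1.44 and 35.7 ± 22.1 FPKM (SD, n = 4), a ratio of 2.26 that did not pass the test (log2 fold change 0.90, SE 0.398, adjusted p = 0.146). Its 95% interval ran from 0.01 to 1.80. Without LRP1 KO 4, Plvap passed with a log2 fold change of 1.32 (SE 0.239, adjusted p = 0.00549), and without LRP1 KO 1 the value was 0.55 (adjusted p = 0.314).

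Gpihbp1 (chr15:75596628-75599481, plus strand) was the only capillary marker above 1 FPKM on average. It was 1.08, 1.31, 2.46 and 1.55 FPKM in WT and 2.48, 1.30, 1.38 and 0.802 FPKM in LRP1 KO. The groups overlapped almost fully, with means of 1.60 ± 0.606 and 1.49 ± 0.708 FPKM (SD, n = 4). The log2 fold change was -0.07 (SE 0.213, adjusted p = 0.833) with a 95% interval from -0.55 to 0.41, and it was 0.07 without LRP1 KO 4.

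Car4, the carbonic anhydrase of alveolar capillaries (chr11:84957786-84966044, plus strand), was lower in the knockout. It was 1.61, 0.659, 0.510 and 0.509 FPKM in WT and 0.224, 0.478, 0.176 and 0.242 FPKM in LRP1 KO. No LRP1 KO library reached the lowest WT library, LRP1 KO 4 included, and the mean of LRP1 KO was 34.1% of that of WT, 0.280 ± 0.135 against 0.823 ± 0.531 FPKM (SD, n = 4; exact permutation test, p = 0.0286). A separation downward was seen in 8.53% of the genes with any value above 0. WT 1 stood apart from the other WT libraries, and without it the WT mean was 0.559 ± 0.0862 FPKM (SD, n = 3), of which the LRP1 KO mean was 50.1%, with a log2 difference of -0.29 in place of -0.48 (exact permutation test, p = 0.0571). Without LRP1 KO 1, 3 or 4 the log2 difference was -0.46, -0.44 and -0.46 (exact permutation test, p = 0.114 for each). In the fit with the lower filter, Car4 did not pass (log2 fold change -0.48, SE 0.169, adjusted p = 0.0884).

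The heart capillary factors were low, Meox2 in every library and Tcf15 listed at 0 in most. Meox2 (chr12:37108540-37179534, plus strand) was 0.205 to 0.322 FPKM in WT and 0.207 to 0.347 FPKM in LRP1 KO, and these ranges were almost the same (exact permutation test, p = 0.600). Tcf15 (chr2:152143561-152149097, plus strand) is listed at 0 in 6 libraries, at 0.0369 FPKM in WT 2 and at 0.0217 FPKM in LRP1 KO 2.

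Over the 9 genes, 3 were tested in the main fit and 0 were called by limma, while 1 of the 3 (Plvap) had an unadjusted p-value under 0.05, as did 33.7% of all tested genes. The exact permutation test, run on each of the 9 genes, gave p under 0.05 for 2 of them, Oit3 and Car4, whose levels were below the filter of the main fit. The groups did not overlap in these 2 genes, 1 higher and 1 lower, against 16.1% of all genes with any value above 0.

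**Figure D2:**
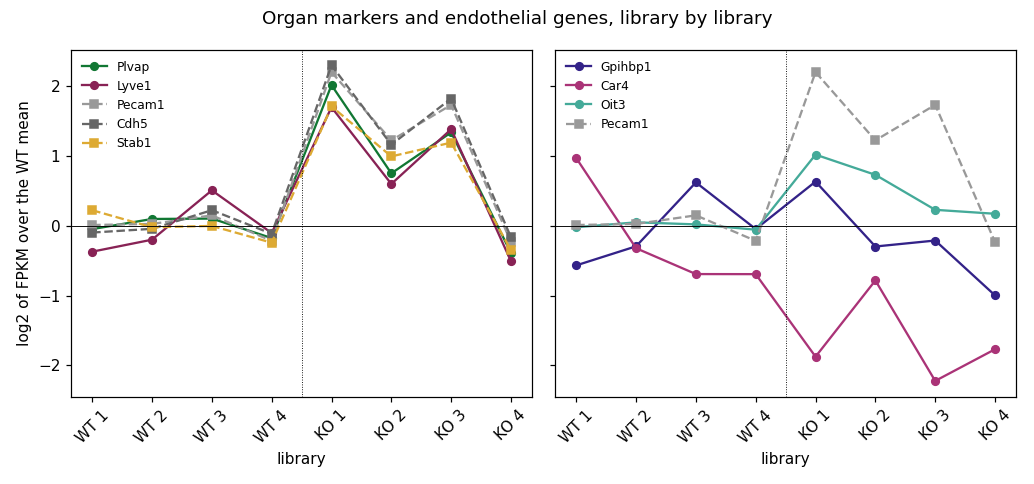
Level of single genes in each library relative to the WT mean, as log2 of the ratio of FPKM (vertical axis), for the 4 WT and 4 LRP1 KO libraries (horizontal axis, separated by a dotted line); lines join libraries only to guide the eye. On the left, Plvap and Lyve1 run with Pecam1, Cdh5 and Stab1, above all WT libraries in KO 1 to 3 and below them in KO 4, while on the right Oit3 is above the WT mean in all 4 KO libraries, Car4 is below it in all 4, and Gpihbp1 lies on both sides.

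The 2 abundant markers varied across libraries like many, though not all, general endothelial genes. Over the 8 libraries, the genes most like Plvap in log2(FPKM + 1) were Flt4 (the receptor of VEGF-C, r = 0.992), Rasip1 (r = 0.990) and Myct1 (r = 0.989). Pecam1 ranked 10th with r = 0.986 and Cdh5 12th with r = 0.985 among 11388 genes. The genes most like Lyve1 were Angpt2, a ligand of the receptor TEK (r = 0.988), Ldb2 (r = 0.987) and Btbd3 (r = 0.985), with Cdh5 at rank 25 (r = 0.963). Over 17 pan-endothelial genes r ran from 0.213 to 0.987 for Plvap (median 0.962) and from 0.394 to 0.971 for Lyve1 (median 0.905), lowest with the VEGF receptor gene Flt1 for both. For Gpihbp1 it ran from 0.137 to 0.610 (median 0.376). The genes closest to Gpihbp1 were Amigo3 (r = 0.925), Serpinb8 (r = 0.920) and Atp2c1 (r = 0.920), and its r with Pecam1 was 0.445. These are descriptions over 8 libraries of 2 groups, without a test.

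To set each marker against the amount of endothelial RNA, its FPKM was divided by the geometric mean FPKM of the 18 pan-endothelial genes in the same library, a comparison added after the data had been seen. This endothelial level was 5.37, 5.14, 5.27 and 4.70 FPKM in WT and 18.2, 10.2, 13.4 and 4.56 FPKM in LRP1 KO. Plvap per endothelial level was 3.09 ± 0.210 in WT and 2.94 ± 0.416 in LRP1 KO, or 95.2% of WT (SD, n = 4; exact permutation test, p = 0.457). Lyve1 was at 2.45 ± 0.684 and 2.12 ± 0.270, or 86.4% (exact permutation test, p = 0.514). Thus the groups overlapped for both genes once the endothelial level was divided out. With other reference genes Plvap was lower in LRP1 KO, at 81.3% of WT against Pecam1 alone, 78.3% against Cdh5 alone and 72.7% against Emcn, Egfl7, Erg, Tie1 and Mmrn2 (exact permutation test, p = 0.0286 for each). Lyve1 was at 72.5% against Cdh5 alone (exact permutation test, p = 0.0286), and its groups overlapped against the other references. The genes of these references had log2 fold changes of 0.98 (Tie1) to 1.57 (Emcn), above the median of 0.94 for the tested pan-endothelial genes. Genes below that median, such as Flt1 (0.23) and Tek (0.38), were in none of them. These references therefore lower a ratio more than the full list does, and the share of all genes separated downward was not computed for them.

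Gpihbp1 per endothelial level separated the groups under every reference. The ratio was 0.201, 0.254, 0.468 and 0.330 in WT and 0.136, 0.128, 0.103 and 0.176 in LRP1 KO, where LRP1 KO 4 was the highest of its group. The mean of LRP1 KO was 43.4% of that of WT, 0.136 ± 0.0301 against 0.313 ± 0.116 (SD, n = 4; exact permutation test, p = 0.0286), and 34.0% to 38.6% with the other references. Without any 1 of the LRP1 KO libraries the exact permutation p was 0.0571. Among all tested genes, 4.72% were separated downward on this scale. As the endothelial level was higher in 3 of the LRP1 KO libraries, this division lowers any gene that did not rise with it: subtracting the mean log2 level of the endothelial list moved the median log2 fold change of all tested genes from -0.01 to -0.86, and that of Gpihbp1 to -0.92.

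**Figure D3:**
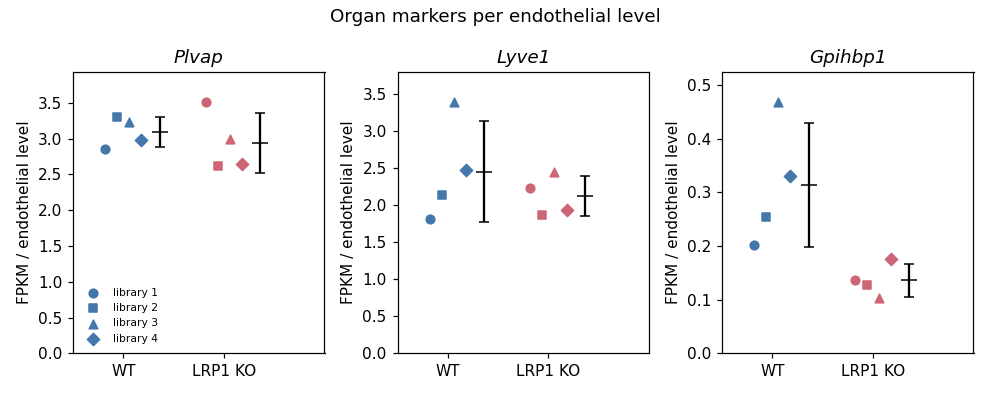
FPKM of Plvap, Lyve1 and Gpihbp1 divided by the geometric mean FPKM of 18 pan-endothelial genes in the same library (vertical axes, starting at 0), for 4 WT and 4 LRP1 KO libraries with mean and SD. The groups overlap for Plvap and Lyve1, and every LRP1 KO library is below every WT library for Gpihbp1.

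Other genes known from the same vessels were examined beside the 9 markers. Their lists were written by hand with earlier results of these data known, so the shares of calls below are descriptions and not a test. In 3 lists, 35 further genes were in the table and 26 were tested, of which 7 rose and 2 fell, or 34.6% against 13.6% of all tested genes. These 9 calls were 16 without LRP1 KO 4, where 26.5% of all tested genes were called, and 3 to 5 without any 1 of the other 7 libraries. At an unadjusted p under 0.05 stood 15 of the 26, against 33.7% of all tested genes. With the macrophage level as a covariate limma called 0 of the 26 and 8 of all 11389 genes, and 13 of the 26 had an unadjusted p under 0.05, against 23.1% of all. This level, a mean of log2(FPKM + 1), was 1.57 to 2.07 in WT and 2.75 to 3.79 in LRP1 KO. Covariate and group thus largely coincide, and the fit cannot tell them apart. In the main fit the remaining 17 of the 26 did not pass, and 9 of the 35 were below the filter. The median log2 fold change was 0.30 for the liver, 0.01 for the lung and 0.28 for the heart list, against -0.01 for all tested genes.

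Of the 13 further liver sinusoid genes, 7 were tested. Mrc1, the mannose receptor, which macrophages also carry, rose from 0.399 ± 0.209 to 3.68 ± 1.77 FPKM (SD, n = 4; log2 fold change 1.67, SE 0.266, adjusted p = 0.00721), in LRP1 KO 4 as well, as did 7 of the 9 tested macrophage genes. Mrc1 was at most 0.657 FPKM in WT and passed the filter through LRP1 KO alone, which limits its place among the genes that rose. Wnt2, a ligand of the Wnt pathway, rose from 3.27 ± 1.88 to 8.62 ± 2.77 FPKM (log2 fold change 1.24, SE 0.319, adjusted p = 0.0347). The transcription factor gene Maf fell (log2 fold change -0.57, adjusted p = 0.0336), but stood at 41.3 FPKM in LRP1 KO 4, within its WT range, and Ehd3, which encodes a protein of endocytic recycling, fell by 0.52 on the log2 scale (adjusted p = 0.0390). Stab1, the paralog of Stab2 that macrophages and other ECs also express, was 11.1 to 15.4 FPKM in WT, 26.2 to 43.1 FPKM in LRP1 KO 1 to 3 and 10.3 FPKM in LRP1 KO 4 (log2 fold change 0.86, adjusted p = 0.118). It thus followed Plvap and Lyve1 across libraries, far above the level of Stab2. Gata4, the factor that sets the sinusoidal program and is also made by mesothelial and heart cells, was even at 13.0 to 17.2 FPKM in all 8 libraries (adjusted p = 0.354), whereas Dnase1l3, Wnt9b, F8, Clec1b and Bmp2 were at or under 0.587 FPKM in each. Fcgr2b, an Fc receptor of sinusoids and leukocytes that was also below the filter, was 0.110 to 0.218 FPKM in WT and 0.489 to 1.19 FPKM in LRP1 KO, with no overlap.

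Of the 12 further lung capillary genes, 11 were tested. Hpgd, which breaks down prostaglandins, rose from 6.71 ± 1.64 to 15.2 ± 1.86 FPKM (SD, n = 4; log2 fold change 1.09, SE 0.150, adjusted p = 0.00382), and Apln, the ligand of the apelin receptor, rose from 1.32 ± 0.185 to 3.08 ± 1.25 FPKM (log2 fold change 0.78, SE 0.183, adjusted p = 0.0278). For both the groups were apart, with LRP1 KO higher, which held for 8.84% of the tested genes. Ednrb, an endothelin receptor that marks the same alveolar capillaries as Car4, was 2.15 to 3.15 FPKM in WT and 2.81 to 8.20 FPKM in LRP1 KO (log2 fold change 0.83, adjusted p = 0.0506). Ace, the angiotensin-converting enzyme, was 37.8 to 60.6 FPKM in WT, 18.4 to 25.9 FPKM in LRP1 KO 1 to 3 and 51.3 FPKM in LRP1 KO 4 (log2 fold change -0.91, adjusted p = 0.0605). It was low in the knockout libraries in which Plvap was high.

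Of the 10 further heart capillary genes, 8 were tested. Cd36, a carrier of fatty acids on capillary ECs, macrophages and fat cells, rose from 1.29 ± 0.355 to 9.34 ± 2.34 FPKM (SD, n = 4; log2 fold change 2.17, SE 0.171, adjusted p = 0.000389), with 7.01 FPKM in LRP1 KO 4. The water channel gene Aqp1 rose from 19.1 ± 4.26 to 67.9 ± 33.7 FPKM (log2 fold change 1.59, SE 0.431, adjusted p = 0.0415), but LRP1 KO 4 had 19.9 FPKM, inside the WT range. Mgll, which splits monoglycerides, also rose (log2 fold change 0.68, adjusted p = 0.0494). Fabp4, a fatty acid binding protein of capillaries and of fat cells, was the most abundant of these genes at 359 to 411 FPKM in WT and 315 to 405 FPKM in LRP1 KO (adjusted p = 0.723). Of the 2 genes below the filter, Aqp7 was under 0.1 FPKM in every library, and Slc28a2, a nucleoside transporter gene, was 0.0859 to 0.263 FPKM in WT and 0.420 to 0.797 FPKM in LRP1 KO, with no overlap.

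**Figure D4:**
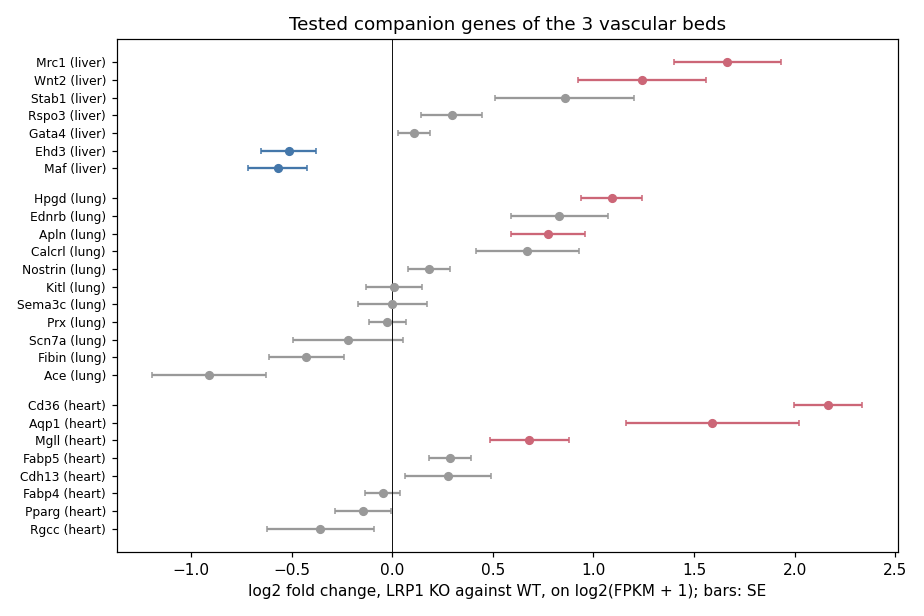
Log2 fold change of LRP1 KO against WT on the log2(FPKM + 1) scale (horizontal axis) with its SE for the 26 tested further genes of liver sinusoids, lung capillaries and heart capillaries. Genes that rose are drawn in red, genes that fell in blue and genes that did not pass in grey, and 7 are red and 2 blue.

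The partners of Gpihbp1, the relatives of Car4 and the genes of the caveolae that PLVAP closes were examined too. Of 7 genes of the lipoprotein lipase system 4 were tested, and Lpl, the enzyme that GPIHBP1 carries, fell from 208 ± 36.5 to 120 ± 35.3 FPKM (SD, n = 4; log2 fold change -0.81, SE 0.187, adjusted p = 0.0261), with 173 FPKM in LRP1 KO 4, within the WT range. Sel1l, needed for the enzyme to leave the endoplasmic reticulum, did not pass (log2 fold change 0.04, adjusted p = 0.818). Of 14 other carbonic anhydrase genes 8 were tested, 2 rose and 2 fell. Car9, an enzyme induced by low oxygen, fell from 4.90 ± 0.757 to 1.65 ± 0.579 FPKM (log2 fold change -1.17, SE 0.154, adjusted p = 0.00302) with no overlap, as for Car4 and for 10.7% of the tested genes, while Car8 rose (log2 fold change 1.26, adjusted p = 0.0307), at 0.981 FPKM in LRP1 KO 4. Car13 rose and Car11 fell by less (log2 fold changes 0.37 and -0.76, adjusted p = 0.0476 and 0.0493). Of the 6 caveolar genes, Cav2 rose (log2 fold change 0.85, SE 0.187, adjusted p = 0.0219), and Cav1, the main protein of the caveolar coat, was 157 to 257 FPKM in WT and 221 to 469 FPKM in LRP1 KO (log2 fold change 0.74, adjusted p = 0.0694). Cavin2 did not pass either (log2 fold change -0.30, adjusted p = 0.0773).

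Markers of the parenchymal cells of the 3 organs were uneven. Of the hepatocyte genes, Alb, Hnf4a, Apob and Cyp3a11 were at or under 0.108 FPKM in every library. Ttr was 0.388 to 1.28 FPKM in WT and 0.318 to 0.495 FPKM in LRP1 KO, and Tat 0.163 to 0.504 FPKM and 0.0116 to 0.198 FPKM, with overlap in both, while Ahsg rose from a range of 10.1 to 11.1 FPKM to one of 11.5 to 27.2 FPKM (log2 fold change 0.91, adjusted p = 0.0326). The lung epithelial genes Sftpc, Sftpb and Sftpa1 were at or under 0.181 FPKM, while Ager was 1.36 to 4.34 FPKM, Hopx 0.529 to 1.55 FPKM and Scgb1a1, a secretory protein of airways, 1.84 to 3.42 FPKM in WT and 0.991 to 1.26 FPKM in LRP1 KO (log2 fold change -0.85, adjusted p = 0.00770). In 1 of the 10 lung epithelial genes the groups were apart with LRP1 KO higher, and in 2 with LRP1 KO lower. Of the cardiomyocyte genes, Myh6 was 0.180 to 0.414 FPKM in WT and 0.646 to 1.51 FPKM in LRP1 KO, with no overlap. Tnni3 (0.981 to 1.33 and 0.397 to 0.937 FPKM), Ryr2 (0.0276 to 0.0611 and 0.0154 to 0.0228 FPKM) and Pln (0.0265 to 0.109 and 0 to 0.00360 FPKM) were apart in the other direction, whereas in all 8 libraries Tnnt2 was 81.6 to 152 FPKM, Nppa 1.52 to 10.1 FPKM and Myl7 1.04 to 6.99 FPKM. Clec4f and Timd4, which mark the resident macrophages of liver sinusoids, were at or under 0.0152 FPKM, and Vsig4 was at or under 0.278 FPKM. Cd5l, a secreted protein of these and other macrophages, rose from a range of 0.286 to 0.675 FPKM to one of 1.84 to 6.99 FPKM (log2 fold change 1.85, adjusted p = 0.00526). It passed the filter through LRP1 KO alone. The pan-endothelial gene Pecam1 was 6.80 to 8.76 FPKM and Cdh5 8.87 to 11.2 FPKM in WT, above 7 of the 9 organ markers. Several of the further vessel genes were above both in WT, among them Fabp4, Ace, Maf, Ehd3, Rspo3 (15.8 to 25.4 FPKM) and Gata4, and Msln, which marks mesothelial cells, was 1094 to 1272 FPKM in WT and fell by 0.26 on the log2 scale in LRP1 KO (adjusted p = 0.0471).

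**Figure D5:**
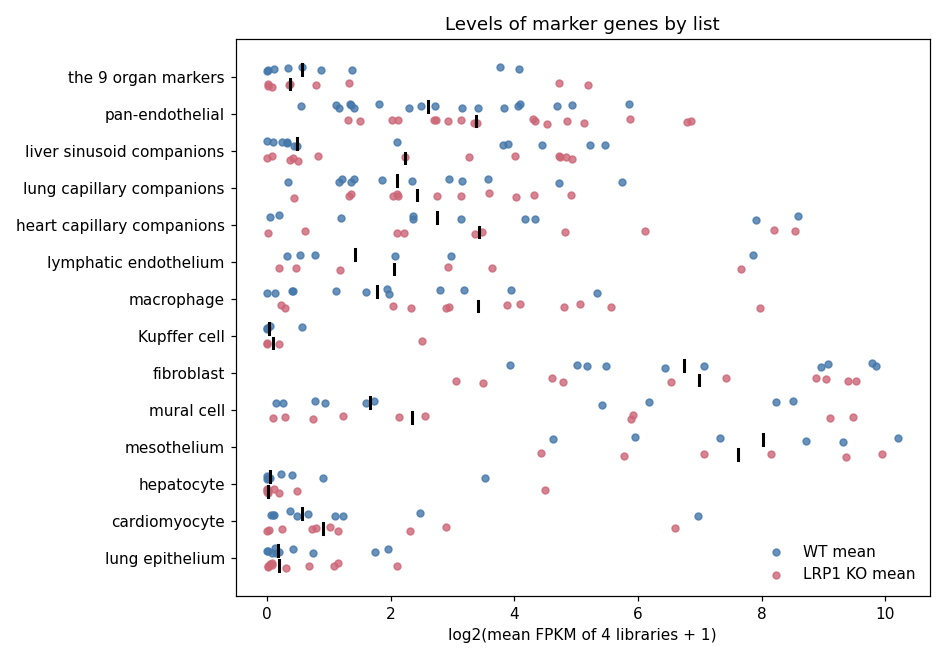
Log2 of the mean FPKM of 4 libraries plus 1 for each gene in WT and in LRP1 KO (horizontal axis; 1 point per gene and group), with the median of each list as a vertical bar, for the 9 organ markers, further genes of the same vessels and marker lists of other cells. Plvap and Lyve1 lie to the right of the other 7 organ markers, and the medians of the fibroblast and mesothelial genes lie to the right of those of all other lists drawn.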

How the data were processed

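The authors deposited 1 table of normalized expression values for 22520 genes in 8 libraries. The deposited FPKM values were taken as such because they carry a length correction. The header names no unit, and TPM cannot be told apart from them. The submitters' processing notes name TopHat2, Cufflinks and mm10 without a role or order. The study's methods describe trimming with trimGalore, alignment with STAR, counting with featureCounts and testing with edgeR, and which steps gave this table is not given in the sources used here. Sorted values differed between libraries by a median of 0.574% and at most 3.33%, so the table had been quantile normalized. Depth is therefore unknown, no counting error was computed, and a shift shared by many genes of a library cannot be seen.

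Genes with at least 1 FPKM in at least 4 libraries (11389) were analysed as log2(FPKM + 1) with limma 3.58.1 in R 4.3.3 (lmFit, eBayes with trend, group as the only term), with Benjamini-Hochberg adjustment over all tested genes. The code was tested on simulated data. For single genes, mean log2(FPKM + 1) was compared by exact two-sided permutation over the 70 ways to choose 4 of 8 libraries. For values per endothelial level, the log2 of the ratio was compared in the same way, with nothing added to FPKM. With 1 library left out, there were fewer such ways. Ensembl identifiers gave the gene positions in GENCODE M21, which uses the GRCm38 assembly (mm10). Groups and replicate numbers came from the sample titles.

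The 9 markers and the 20 other gene lists, written by hand, were chosen with earlier results of these data known. Foxf1, Car5a and Tf were not matched. The rule named all 9 markers, Lrp1, of each list up to 4 called genes by fold change or, with fewer than 2 called, the 2 with the highest WT mean, and for each tested marker the 3 genes with the highest Pearson r. Other genes named were chosen after their values were seen, and 1 gene under the rule is not reported here. Alternatives changed the pseudocount, filter, scaling, covariates, variance model and libraries.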

Additional observations from a re-analysis of the deposited data

Results flagged for a closer look

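Among the 17 groups of 4 libraries with unequal values of the 9 markers, 3 held a library far from the others by Dixon's test, which flags about 1 in 20 groups of continuous values by chance. Car4 was 1.61 FPKM in WT 1, the highest of all 8 libraries, against 0.509 to 0.659 FPKM in WT 2 to 4. Tcf15 was 0.0369 FPKM in WT 2, the lone WT library above 0. In the knockout group, LRP1 KO 2 was likewise alone above 0, at 0.0217 FPKM. With the other values of each Tcf15 group at 0, any value above 0 meets this test, so neither says anything of its size.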

How the results depend on the processing

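The number of genes called, 1547 in the main fit over 11389 genes, was 4351 with the endothelial level subtracted, 169 with an endothelial, 8 with a macrophage and 263 with a fibroblast covariate, 1013 with a replicate block, and 512 to 3021 when 1 library was left out, the highest without LRP1 KO 4. Each of these fits tested 3 of the 9 markers, with 6 below the filter. Only the fit without LRP1 KO 4 called any, 2 of the 3 (Plvap and Lyve1), so that leaving out 1 library gave 0 to 2. The fit without a filter, over all 9 markers, and that with the lower filter, over 6, called 0. The replicate block called 0 of the 3 and 9 of the 26 further genes. Replicate numbers were not taken as pairs: deviations correlated over 0.1 in 3 of 4 same-numbered pairs (range -0.312 to 0.340), not in all, although 5 of 8 libraries correlated best with their own number. The 9 calls among further genes were 5 without a filter, 2, 0 and 4 with the endothelial, macrophage and fibroblast covariates, and 3 to 16 when 1 library was left out, with 16 again without LRP1 KO 4. With the macrophage covariate 13 of the 26, and 23.1% of all tested genes, had an unadjusted p under 0.05. The macrophage level itself did not overlap between the groups. Lyve1 changed sign with the endothelial level subtracted (-0.0535) and with the endothelial covariate (-0.31), and Plvap with the latter (-0.28). With the macrophage covariate they stood at 2.26 and 2.45, neither past the threshold, and with the fibroblast covariate at 0.04 each. Gpihbp1 was 0.0766 with the macrophage covariate, 0.0724 without WT 3 and 0.0678 without LRP1 KO 4, and from -0.249 to 0.0724 when 1 library was left out. Subtracting the endothelial level shifted the groups by 0.849, which turned Clec4g (-0.83), Oit3 (-0.64) and Meox2 (-0.82) negative by construction. Tcf15 turned to 0.00773 without WT 2, its highest library, and ran from -0.0131 to 0.00773 when 1 library was left out. Oit3 lost its exact p under 0.05 without any 1 of the WT libraries (0.0857 to 0.114 by permutation, with a difference of 0.20 to 0.21 against 0.21), and Car4 without WT 1 (0.0571) or LRP1 KO 1, 3 or 4 (0.114 each by permutation). Gpihbp1 per endothelial level stood at -0.94 to -1.35 (log2) when 1 library was left out. Its exact permutation p was 0.0286 without any 1 WT library and 0.0571 without any 1 LRP1 KO library. The cause of these shifts was not tested, apart from the subtraction.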

Other observations

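Vessels of other kinds were seen in part. Of 6 arterial genes 3 were tested and 1 rose: Gja4, a gap junction gene of arteries, was 1.39 to 2.48 FPKM in WT and 2.80 to 7.16 FPKM in LRP1 KO (log2 fold change 0.97, adjusted p = 0.0279). Of 5 venous genes 4 were tested and 0 were called by limma (1, Selp, at an unadjusted p under 0.05), and Nr2f2, the transcription factor of veins, was 10.8 to 13.3 FPKM in WT and 10.5 to 12.8 FPKM in LRP1 KO, with Ephb4 at 16.0 to 20.2 FPKM and 16.1 to 17.6 FPKM. Efnb2, its arterial ligand, did not pass (log2 fold change 0.27, adjusted p = 0.0880). Of the 6 lymphatic genes 3 were tested and 0 were called (1, Flt4, at an unadjusted p under 0.05), with Mmrn1 at 5.16 to 9.89 FPKM in WT, 7.33 to 18.5 FPKM in LRP1 KO 1 to 3 and 4.25 FPKM in LRP1 KO 4. Pdpn, which mesothelial cells and fibroblasts also make, was 197 to 251 FPKM in WT and 184 to 231 FPKM in LRP1 KO.

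Cells that surround vessels were represented too. Of 10 mural cell genes 7 were tested and 3 rose, the muscle genes Acta2 (log2 fold change 0.95, adjusted p = 0.0128), Tagln (log2 fold change 0.88, adjusted p = 0.00847) and Des (log2 fold change 0.51, adjusted p = 0.00490). Of 5 hepatic stellate cell genes 3 were tested, and Hand2 rose (log2 fold change 1.01, adjusted p = 0.0112), while the defining genes Lrat and Lhx2 were at or under 0.148 FPKM. Of 6 leukocyte genes 4 were tested and 3 rose, Cd52 (log2 fold change 1.63, adjusted p = 0.000389), Itgb2 (log2 fold change 1.34, adjusted p = 0.00328) and Laptm5, the last from a range of 0.549 to 2.06 FPKM to one of 9.24 to 15.9 FPKM (log2 fold change 2.36, adjusted p = 0.000628). Cd52, at most 0.174 FPKM in WT, passed the filter through LRP1 KO alone, which limits this count. Of the 10 fibroblast genes 1 rose, Postn (log2 fold change 0.98, adjusted p = 0.00663), and 3 fell, Dpt (log2 fold change -2.01, adjusted p = 0.0330), Pdgfra (log2 fold change -0.96, adjusted p = 0.0367) and Thy1 (log2 fold change -0.52, adjusted p = 0.0297). Of the 6 mesothelial genes 2 fell, Msln and Upk3b (log2 fold change -0.55, adjusted p = 0.0109). The macrophage genes with the largest rise were C1qb (log2 fold change 2.75), Ctss (2.73), Lyz2 (2.60) and C1qc (2.37), with adjusted p of 0.00237, 0.000449, 0.00205 and 0.00767. The adjusted p-values are those of the limma fit over 11389 genes.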
